A study of Homo sapiens with 12 samples.

Results

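The genes described here encode 9 SR proteins, SRSF1 to SRSF7, SRSF10 and SRSF11, and the data are the splicing of their own transcripts in HEK293T, a widely used established line derived from human embryonic kidney. Members were all splicing events whose gene symbol names one of these genes and that hold a value in every column of their table. By MISO this gave 30 events of the 36 listed for these genes, in 8 of the 9 genes, out of 10358 complete events in all. For differences by rMATS, the authors' deposited table gave 59 of 125 events in all 9 genes, out of 60623 complete events. The 30 MISO events comprised 6 alternative 5' and 6 alternative 3' splice sites, 8 retained introns and 10 cassette exons. SRSF5 had 7 of them, SRSF7 5, SRSF1, SRSF2 and SRSF11 4 each, SRSF10 3, SRSF4 2 and SRSF3 1. SRSF6 had a single MISO event, without a value in the PRMT1 column. For 3 of the 4 SRSF2 events the symbol column also names MIR636, a microRNA gene.

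SR proteins carry RNA recognition motifs and a domain rich in arginine and serine. They bind exonic enhancers, recruit the spliceosome to nearby splice sites and take part in mRNA export. Most SR protein genes limit their own expression: at a high protein level an unproductive form of their transcript is made, by inclusion of a poison exon with a premature stop codon or by splicing or retention of an intron, and this form is degraded by nonsense-mediated decay. Protein arginine methyltransferases (PRMTs) methylate many RNA-binding proteins, SRSF1 among them.

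The cells carried stable lentiviral hairpins. Sequencing covered poly(A) RNA of 12 libraries: 1 carried a scramble hairpin, 1 a hairpin against PRMT6, and 2 different hairpins were used against each of PRMT1, PRMT3, PRMT4, PRMT5 and PRMT7. All groups are the same cell line with an integrated hairpin, and no label says whether cells were cloned or pooled, and the reduction of each target was not analysed here. Each table holds 1 column per target, so no value has an SD, an n or a test. The measure is PSI (percent spliced in), running from 0 to 1 with the part of an event's transcripts that take the inclusive form: for a cassette exon the form with the exon, for an intron the retained form, and for an alternative splice site the longer exon. Read depth is unknown, and expression levels, with which the identity of the line could be checked, were not analysed here. A difference of at least 0.1 PSI from scramble is called differing, a rule of size alone. All 6 comparisons share the scramble column, so its own deviation enters each of them. Poly(A) RNA shows what is left after decay, so less splicing into a form and faster decay of that form cannot be told apart.

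Of the 30 MISO events, 8 had a form that GENCODE release 29 holds in a transcript annotated as a target of nonsense-mediated decay and in no protein-coding transcript, while the opposite form is held by a protein-coding transcript. Such a form is called a decay form here. This applied to 11 of the 59 events of the authors' deposited table. The stretches below show where translation would end in such forms of the events described most, and in the retained SRSF1 intron. Each runs from the first base of the alternative exon or intron to the annotated stop codon, which is in capitals. They are transcript sequences of GENCODE release 29 on build GRCh38, matched by exon and intron lengths, whereas all event coordinates further on are GRCh37.
SRSF1 intron of 200 bases, chr17:58005747-58005800, minus strand: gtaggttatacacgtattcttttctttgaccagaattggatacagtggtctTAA
SRSF3 exon of 456 bases, chr6:36599821-36599854, plus strand: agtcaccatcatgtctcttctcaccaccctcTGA
SRSF6 exon of 268 bases, chr20:43459153-43459304, plus strand: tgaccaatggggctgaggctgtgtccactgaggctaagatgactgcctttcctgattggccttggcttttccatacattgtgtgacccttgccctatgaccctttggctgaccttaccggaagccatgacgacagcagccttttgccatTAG
SRSF7 exon of 449 bases, chr2:38749319-38749346, minus strand: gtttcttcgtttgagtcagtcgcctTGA
SRSF7 intron of 875 bases, chr2:38749516-38749528, minus strand: gtatttatttTAA
SRSF11 exon of 117 bases, chr1:70231859-70231908, plus strand: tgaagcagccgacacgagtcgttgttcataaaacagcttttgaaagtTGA
In the transcripts annotated as decay targets, the stop codon lies 824 bases before the last exon junction for SRSF1, 548 for SRSF3, 534 for SRSF6 and 270 for SRSF11. The retained SRSF1 intron is also held by a transcript annotated as protein-coding, in which the same stop codon lies in the last exon, so its retention counts as no decay form here.

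In PRMT3 knockdown 7 of the 30 MISO events differed (23.3%), in SRSF1, SRSF2, SRSF4 and SRSF5, beside 10.5% of all events. In PRMT1, PRMT4 and PRMT7 knockdown 4 events each differed (13.3%), beside 7.4%, 7.47% and 6.34% of all events. In PRMT5 knockdown 3 events differed (10.0%), beside 8.27%, and in PRMT6 knockdown 2 (6.67%), beside 6.84%, so these shares were near the background. In the authors' deposited table the SR protein genes stood the other way, below the background in every knockdown: 5 of 59 events differed in PRMT3 (8.47%, beside 15.3% of all events), 3 in PRMT1 (5.08%, beside 12.5%), 3 in PRMT6 (5.08%, beside 15.1%), and 2 each in PRMT4, PRMT5 and PRMT7 (3.39%, beside 13.8%, 13.8% and 12.4%). The tables thus differ on whether these genes hold a larger or smaller share of differing events than all genes, and the shares describe each table only.

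By direction, MISO gave 2 higher and 2 lower member events for PRMT1 (2.99% and 4.41% of all events), 3 and 4 for PRMT3 (4.37% and 6.12%) and 1 and 3 for PRMT4 (3.23% and 4.24%). It gave 1 and 2 for PRMT5 (4.57% and 3.71%), 1 and 1 for PRMT6 (2.5% and 4.33%) and 3 and 1 for PRMT7 (2.54% and 3.8%). The members thus went both ways in every knockdown by MISO. Counts from the authors' deposited table were 2 higher and 1 lower for PRMT1 (6.59% and 5.94% of all events), 2 and 3 for PRMT3 (7.64% and 7.68%) and 1 and 1 for PRMT4 (6.84% and 6.91%). For PRMT5 the authors' deposited table gave 0 and 2 (8.16% and 5.66%), for PRMT6 3 and 0 (7.16% and 7.9%) and for PRMT7 2 and 0 (6.57% and 5.85%). With the median of all 7 MISO columns in place of scramble, 4 events each differed for PRMT3 and PRMT5 and 2 for PRMT1. For PRMT4, PRMT6 and PRMT7 it was 1 each. No share over all events was made by that reference, so these counts describe the members only. The median size of a difference among members was 0.02 PSI by MISO, and 0.03 for PRMT3, beside 0.01 and 0.02 over all events. Among members of the authors' deposited table it was 0.006 to 0.013, beside 0.014 to 0.017. The range over the 7 MISO columns, scramble included, reached 0.1 in 15 of the 30 events (50.0%) and in 28.6% of all events. Scramble lay below all 6 knockdowns in 3 events and above all of them in 2, of 30, while it lay outside them in 17.1% of all events. By MISO 10 member events in 5 of 8 genes differed in at least 1 knockdown (33.3%, beside 21.5% of all events), and 9 events in 4 of 9 genes did in the authors' deposited table (15.3%, beside 25.9%). No member event differed in all 6 knockdowns in the same direction, in either table (0.56% of all MISO events and 3.79% of all events of the authors' deposited table did).

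**Figure D1:**
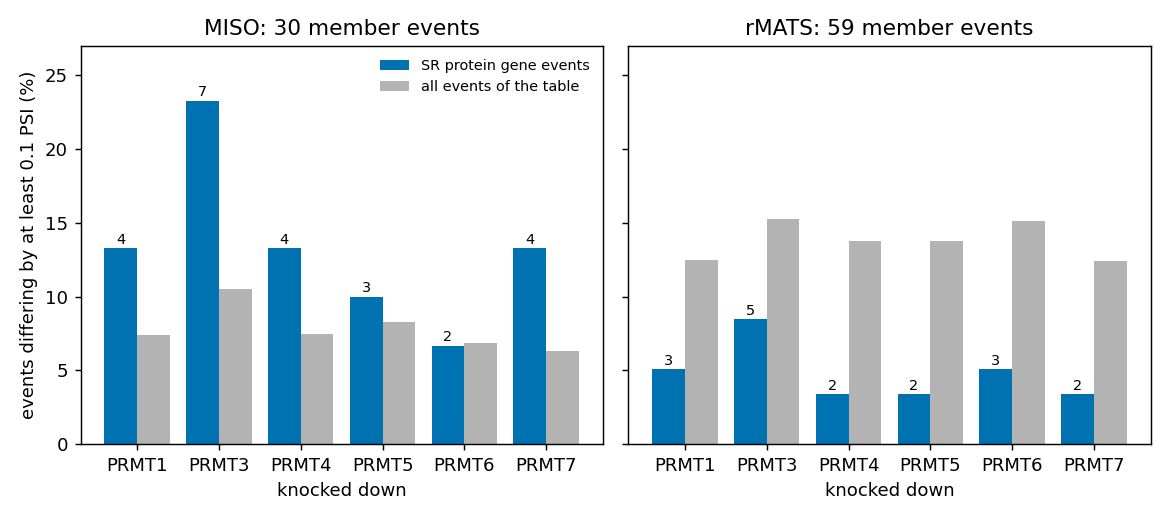
Share of events that differed from control by at least 0.1 PSI (vertical axis, percent) for each PRMT knocked down (horizontal axis), for the SR protein gene events (blue, with their number above) and for all complete events of the table (grey). By MISO the share of SR protein gene events was 23.3% in PRMT3 against 10.5% of all events, and in the authors' deposited table of rMATS differences it was lower than the share of all events in all 6 knockdowns.

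SRSF1, the founding SR protein and a general splicing activator, showed the widest range of any member. Retention of its 200-base intron (chromosome 17, 56082962 to 56083161), which interrupts the coding sequence, was 0.24 for scramble, 0.23 for PRMT1, 0.67 for PRMT3, 0.22 for PRMT4, 0.36 for PRMT5, 0.15 for PRMT6 and 0.33 for PRMT7. The PRMT3 value stood apart, 0.31 above the next highest, and the other 6 columns lay within 0.21 of each other. A second intron of 921 bases, after the stop codon (56081363 to 56082283), went the opposite way: retention was 0.89 for scramble, 0.91 for PRMT1, 0.54 for PRMT3, 0.94 for PRMT4, 0.82 for PRMT5, 0.94 for PRMT6 and 0.87 for PRMT7. Again PRMT3 stood apart and PRMT5 was the next lowest. Its spliced form is the one held only by decay transcripts, so that form was higher by 0.35 for PRMT3 knockdown. The upstream exon of this event as MISO defines it runs through the 200-base intron, so the 2 events share sequence and are not independent.

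Other SRSF1 events varied little by MISO. For 5' splice sites 16 bases apart, at the end of the exon that follows the 200-base intron, the longer exon, annotated as a decay form, had a PSI of 0.02 for scramble, 0.08 for PRMT1 and PRMT3, and 0.01 to 0.05 for PRMT4, PRMT5, PRMT6 and PRMT7. In an upstream exon, the longer exon of 5' splice sites 37 bases apart stood at 0.01 in all 7 columns. The authors' deposited table holds no complete row that sets retention of the 200-base or of the 921-base intron against its splicing. It holds a 187-base exon and a version of it longer by 16 bases, which begin at the 3' end of the 200-base intron, set against direct joining across a 759-base intron. The 187-base exon (56082775 to 56082961), read as knockdown minus control, was at 0.027 for PRMT1, -0.157 for PRMT3, -0.038 for PRMT4, -0.122 for PRMT5, 0.057 for PRMT6 and 0.033 for PRMT7 in the authors' deposited table. PRMT3 and PRMT5 were the lowest and PRMT6 the highest there, whereas retention of the 200-base intron by MISO was highest for PRMT3 and PRMT5 and lowest for PRMT6. Retention of the whole 759-base intron was -0.079 for PRMT3 and -0.089 for PRMT5 in the authors' deposited table, within 0.022 of 0 in the other 4.

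**Figure D2:**
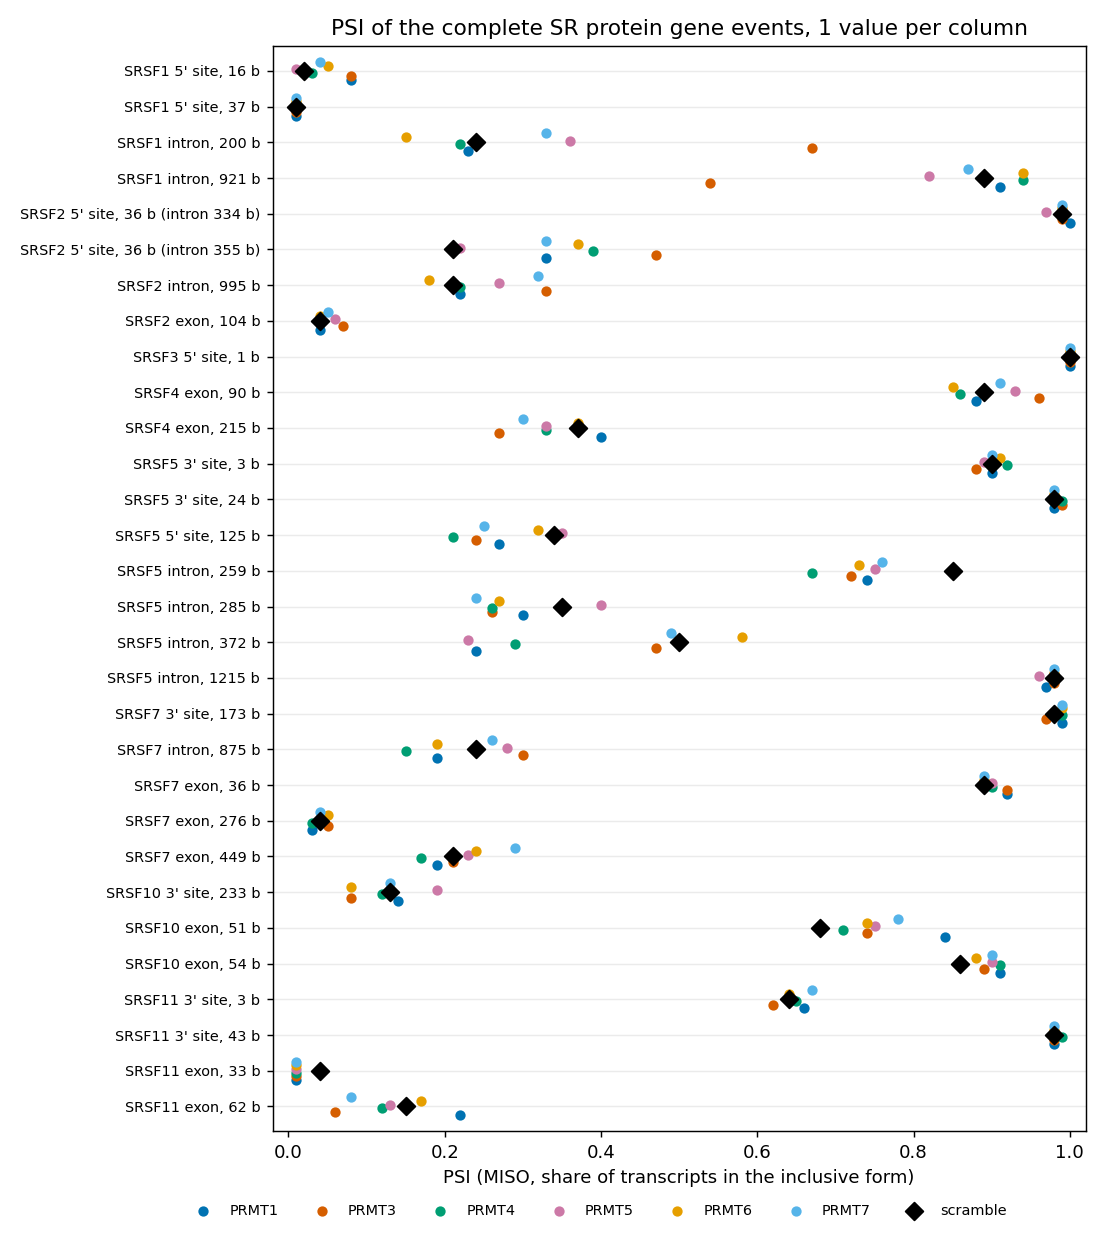
PSI by MISO (horizontal axis, 0 to 1) of the 30 complete events of SR protein genes, 1 row per event with the length of its alternative part in bases, for scramble (black diamond) and the 6 knockdowns (coloured points). The SRSF1 introns of 200 and 921 bases in PRMT3 knockdown (0.67 against 0.24 and 0.54 against 0.89) lie farthest from scramble, followed by the SRSF5 intron of 372 bases in PRMT1, PRMT4 and PRMT5 (0.23 to 0.29 against 0.50) and the minor SRSF2 5' splice site choice in PRMT3 (0.47 against 0.21).

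SRSF2 (SC35), a nuclear speckle protein, regulates its transcript in the region after the stop codon. Retention of its 995-base intron there (chromosome 17, 74731241 to 74732235) was 0.21 for scramble, 0.22 for PRMT1, 0.33 for PRMT3, 0.22 for PRMT4, 0.27 for PRMT5, 0.18 for PRMT6 and 0.32 for PRMT7. PRMT3 and PRMT7 were the highest and PRMT6 was below scramble. A 104-base exon inside that intron (74731854 to 74731957), a decay form that a transcript annotated as a retained intron also holds, was rare everywhere: 0.04 for scramble and 0.04 to 0.07 in the knockdowns, highest in PRMT3. This exon was, in the authors' deposited table, at 0.032 for PRMT3, 0.025 for PRMT4, 0.020 for PRMT5 and within 0.006 of 0 in the other 3.

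The SRSF2 event with most differing knockdowns was a choice between 5' splice sites 36 bases apart at the end of its first coding exon (74732881 to 74732916), joined to a minor 3' splice site. The site of the longer exon was used at 0.21 for scramble, 0.33 for PRMT1, 0.47 for PRMT3, 0.39 for PRMT4, 0.22 for PRMT5, 0.37 for PRMT6 and 0.33 for PRMT7. Scramble was the lowest column, with PRMT5 beside it, and 5 knockdowns were at least 0.12 higher. Where the same 5' splice sites join the usual 3' splice site, the longer exon was almost the only form (at least 0.97 in the 7 columns), and the authors' deposited table was within 0.003 of 0 for it. The authors' deposited table has no complete row for the minor 3' splice site.

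SRSF3, the smallest SR protein, and SRSF7, which carries a zinc knuckle, are close relatives that act in mRNA export. The poison exon of SRSF3 (456 bases, chromosome 6, 36567598 to 36568053) had a MISO value only in PRMT6 knockdown, 0.15. The authors' deposited table gives it in all 6: 0.025 for PRMT1, 0.025 for PRMT3, 0.052 for PRMT4, 0.012 for PRMT5, 0.005 for PRMT6 and 0.049 for PRMT7. All 6 were above 0 and none reached 0.1. The one complete MISO event of SRSF3, 5' splice sites 1 base apart, stood at the upper end of the scale in all columns.

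SRSF7 has a decay form by its 875-base intron (chromosome 2, 38975796 to 38976670) as a whole and by exons of 449 and 276 bases inside it. Retention of the intron was 0.24 for scramble, 0.19 for PRMT1, 0.30 for PRMT3, 0.15 for PRMT4, 0.28 for PRMT5, 0.19 for PRMT6 and 0.26 for PRMT7, so the knockdowns lay on both sides of scramble and no difference reached 0.1. The authors' deposited table put it at 0.053 for PRMT3, 0.036 for PRMT7 and -0.036 for PRMT6, and within 0.005 of 0 in the other 3. The 449-base exon (38976040 to 38976488) was 0.21 for scramble, 0.19 for PRMT1, 0.21 for PRMT3, 0.17 for PRMT4, 0.23 for PRMT5, 0.24 for PRMT6 and 0.29 for PRMT7. PRMT7 was the highest by MISO and also in the authors' deposited table, at 0.053. The 276-base version of the exon stayed at 0.03 to 0.05 in all 7 columns, and the longer version held 0.97 to 0.99 of the choice between their 3' splice sites. A 36-base exon far downstream, in the coding sequence (38973286 to 38973321), was at 0.89 to 0.92.

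SRSF4, SRSF5 and SRSF6 are related proteins with a pair of RNA recognition motifs. The poison exon of SRSF6 (268 bases, chromosome 20, 42087793 to 42088060) gave the largest difference of any complete member in the authors' deposited table: 0.060 for PRMT1, 0.250 for PRMT3, 0.148 for PRMT4, 0.042 for PRMT5, 0.003 for PRMT6 and 0.141 for PRMT7. PRMT3, PRMT4 and PRMT7 were past 0.1 and PRMT6 was at control. Its MISO values, not complete, were 0.38 for scramble, 0.64 for PRMT3, 0.36 for PRMT4, 0.45 for PRMT5, 0.46 for PRMT6 and 0.64 for PRMT7. The higher inclusion in PRMT3 and PRMT7 knockdown was in both tables, whereas PRMT4 stood at scramble by MISO.

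SRSF5 had the most member events by MISO, among them 4 introns. Retention was at least 0.1 lower by MISO in 5 knockdowns for its 259-base intron, in 3 for its 372-base intron, in 1 for its 285-base intron and in 0 for its 1215-base intron. The 372-base intron after the stop codon (chromosome 14, 70238262 to 70238633) was at 0.50 for scramble, 0.24 for PRMT1, 0.47 for PRMT3, 0.29 for PRMT4, 0.23 for PRMT5, 0.58 for PRMT6 and 0.49 for PRMT7. The columns fell into a low set (PRMT1, PRMT4 and PRMT5, up to 0.29) and a high set with scramble (0.47 to 0.58). The authors' deposited table has no row for this intron. The 259-base intron (70235969 to 70236227) was at 0.85 for scramble, 0.74 for PRMT1, 0.72 for PRMT3, 0.67 for PRMT4, 0.75 for PRMT5, 0.73 for PRMT6 and 0.76 for PRMT7. Here scramble stood above all 6 knockdowns, which lay close together, and PRMT7 alone missed 0.1. In the authors' deposited table the same intron was lower in all 6 but by 0.049 at most (-0.023 for PRMT1, -0.026 for PRMT3, -0.038 for PRMT4, -0.016 for PRMT5, -0.049 for PRMT6 and -0.036 for PRMT7).

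The neighbouring SRSF5 intron of 285 bases (70235614 to 70235898) was at 0.35 for scramble, 0.30 for PRMT1, 0.26 for PRMT3 and PRMT4, 0.40 for PRMT5, 0.27 for PRMT6 and 0.24 for PRMT7. PRMT5 was the highest column and PRMT7 the only one 0.1 or more below scramble, where the authors' deposited table gave 0.000. Another MISO entry for the same 285-base intron had a value in PRMT6 knockdown only, 0.08, well below the 0.27 given here. A longer intron from the same 5' splice site as the 259-base one (1215 bases) stayed at 0.96 to 0.98, a scale end at which little can be seen. Its retention in the authors' deposited table was 0.066 for PRMT1, 0.047 for PRMT4 and 0.051 for PRMT7, 0.011 for PRMT3, and -0.059 for PRMT5 and -0.028 for PRMT6. Before the start codon, the longer exon of 5' splice sites 125 bases apart (70233973 to 70234097) was used at 0.34 for scramble, 0.27 for PRMT1, 0.24 for PRMT3, 0.21 for PRMT4, 0.35 for PRMT5, 0.32 for PRMT6 and 0.25 for PRMT7. PRMT4 was the lowest by MISO and in the authors' deposited table (-0.069), and PRMT5 was at or above control in both (0.024 in the authors' deposited table). Alternative 3' splice sites 3 and 24 bases apart stood at 0.88 to 0.92 and 0.98 to 0.99.

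SRSF4 varied in coding exons by MISO and in exons near its start in the authors' deposited table. By MISO its 215-base coding exon (chromosome 1, 29481208 to 29481422) was at 0.37 for scramble, 0.40 for PRMT1, 0.27 for PRMT3, 0.33 for PRMT4, 0.33 for PRMT5, 0.37 for PRMT6 and 0.30 for PRMT7, with PRMT3 the lowest. The authors' deposited table was within 0.002 of 0 for it in the 3 columns with a value. The 90-base exon next to it was at 0.89 for scramble and 0.85 to 0.96 in the knockdowns, highest in PRMT3. In the authors' deposited table a 136-base exon (29495015 to 29495150), set against joining of the first exon to a 175-base exon, was higher by 0.159 for PRMT1, 0.101 for PRMT3, 0.023 for PRMT4, 0.088 for PRMT5, 0.184 for PRMT6 and 0.160 for PRMT7. This was the highest mean among complete member exons there, with 4 knockdowns past 0.1. Set against joining to an exon farther downstream, the same 136-base exon was within 0.021 of 0 in all 6 in the authors' deposited table. The 175-base exon and a 184-base exon went lower there, to -0.101 for PRMT1 and -0.101 for PRMT4, and were above 0, by 0.030 at most, for PRMT6 and PRMT7. With other splice junctions these exons were within 0.038 of 0 in their complete rows. Exons of 195 and 228 bases held only by decay transcripts were within 0.031 of 0 in the authors' deposited table.

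SRSF10 (SRp38) represses splicing when dephosphorylated, and SRSF11 (p54) is an SR protein of nuclear speckles. The 51-base coding exon of SRSF10 (chromosome 1, 24298063 to 24298113) was at 0.68 for scramble, 0.84 for PRMT1, 0.74 for PRMT3, 0.71 for PRMT4, 0.75 for PRMT5, 0.74 for PRMT6 and 0.78 for PRMT7. Scramble was the lowest column and PRMT1 the highest. The version of this exon with a 3' splice site 3 bases upstream, 54 bases long, was likewise lowest in scramble, at 0.86 against 0.88 to 0.91. The authors' deposited table gave 0.001 to 0.007 for the 51-base exon. Beside another downstream exon, the 51-base exon was higher by 0.024 to 0.046 and the 54-base exon by 0.026 to 0.055 in all 6 knockdowns in the authors' deposited table. An alternative 3' splice site of SRSF10 that adds 233 bases with a stop codon was at 0.13 for scramble, 0.08 for PRMT3 and PRMT6, and 0.19 for PRMT5.

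SRSF11 holds several alternative exons close together, some of them in decay transcripts. By MISO the 62-base exon (chromosome 1, 70696240 to 70696301) was at 0.15 for scramble, 0.22 for PRMT1, 0.06 for PRMT3, 0.12 for PRMT4, 0.13 for PRMT5, 0.17 for PRMT6 and 0.08 for PRMT7. The authors' deposited table gave -0.056 for PRMT1, -0.161 for PRMT3, 0.010 for PRMT4, 0.042 for PRMT5, 0.021 for PRMT6 and -0.053 for PRMT7. PRMT3 was the lowest in both tables, and PRMT1 was the highest by MISO but below control in the authors' deposited table. With other splice junctions the 62-base exon was within 0.005 of 0 in all 6 knockdowns in the authors' deposited table. A 109-base exon that begins downstream of it (70696778 to 70696886), set against joining to a 117-base exon, was higher in all 6 knockdowns in the authors' deposited table: 0.144 for PRMT1, 0.099 for PRMT3, 0.078 for PRMT4, 0.056 for PRMT5, 0.144 for PRMT6 and 0.091 for PRMT7. With other splice junctions the same 109-base exon was within 0.024 of 0 in all 6 there. The 117-base exon with the premature stop codon was at 0.092 for PRMT3, 0.058 for PRMT5, 0.045 for PRMT7, 0.027 for PRMT1, -0.001 for PRMT4 and -0.047 for PRMT6 in the authors' deposited table. Near the end of the gene, a 33-base exon (70712800 to 70712832) reached 0.133 for PRMT6 and 0.096 for PRMT5 in the authors' deposited table, against 0.026 to 0.040 in the other 4, but within 0.019 of 0 when joined to a 3' splice site 21 bases farther on. Other SRSF11 events hardly varied by MISO: 3' splice sites 3 and 43 bases apart stood at 0.62 to 0.67 and 0.98 to 0.99, and a 33-base exon near the start at 0.04 for scramble and 0.01 in all knockdowns.

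Forms annotated as decay targets can be read across genes. For the 8 MISO events with such a form, in 4 genes, the share of that form was higher than in scramble for 5 and lower for 0 in PRMT3 knockdown, and likewise for 5 and 0 in PRMT7. It was higher for 4 and lower for 1 in PRMT5, 3 and 2 in PRMT6, 1 and 4 in PRMT1, and 1 and 5 in PRMT4. Most of these differences were small: the median was 0.02 for PRMT3, 0.015 for PRMT7 and between -0.01 and 0.01 in the other 4, and 1 event in 1 knockdown reached 0.1, the SRSF1 intron of 921 bases in PRMT3. In the authors' deposited table, over 11 events in 7 genes, the decay form was above control for 10 and below for 1 in PRMT7, 9 and 2 in PRMT4, 8 and 3 in PRMT3, 7 and 3 in PRMT1, 5 and 6 in PRMT5, and 4 and 7 in PRMT6. There 1 event reached 0.1 for PRMT3, PRMT4 and PRMT7, the SRSF6 exon each time in the authors' deposited table. PRMT3 and PRMT7 were on the side of more decay form in both tables, while PRMT1, PRMT4, PRMT5 and PRMT6 were on opposite sides, PRMT5 only narrowly. Events of a gene overlap, the comparisons share the scramble column, and no counts over all genes were made for these forms, so nothing is called particular to SR protein genes.

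**Figure D3:**
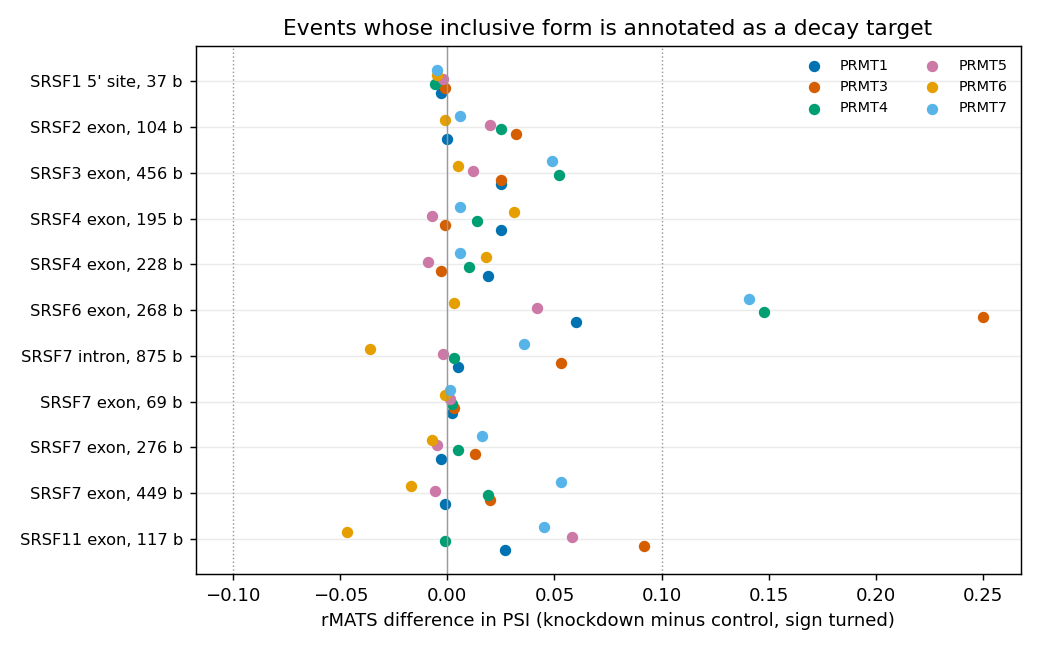
Difference in PSI (horizontal axis, knockdown minus control, from the authors' deposited table of rMATS differences with its sign turned) for the 11 complete events whose inclusive form GENCODE holds in a decay transcript and in no protein-coding one, 1 row per event, 1 coloured point per knockdown. Dotted lines mark a difference of 0.1, which in the authors' deposited table the SRSF6 exon passed in PRMT3 (0.250), PRMT4 (0.148) and PRMT7 (0.141) and no other event passed.

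Retained introns of the SR protein genes numbered 8 by MISO: 4 in SRSF5, 2 in SRSF1 and 1 each in SRSF2 and SRSF7. Their median difference from scramble was -0.03 for PRMT1, -0.015 for PRMT3, -0.055 for PRMT4, 0.01 for PRMT5, -0.04 for PRMT6 and -0.005 for PRMT7, beside -0.01 to 0 for all 1152 introns. In PRMT3 knockdown 2 introns were higher by at least 0.1 (SRSF1 and SRSF2; 5.99% of all introns were) and 2 lower (SRSF1 and SRSF5; 9.03%). In PRMT1 and PRMT4 knockdown the 2 lower introns were both in SRSF5 (8.59% and 9.9% of all introns were lower), and none was higher (1.82% and 1.91%). PRMT5 knockdown had 1 higher, in SRSF1 (3.82%), and 2 lower, in SRSF5 (8.77%). PRMT7 knockdown had 1 higher, in SRSF2 (2.86%), and 1 lower, in SRSF5 (5.9%). PRMT6 knockdown had 1 lower, in SRSF5 (11.3%), and 0 higher (1.39%). Every lower intron other than the 921-base one of SRSF1 was thus an SRSF5 intron, and with so few introns the shares say little beyond these names. Without the 4 SRSF5 introns the median was 0.09 for PRMT3, 0.055 for PRMT7 and -0.005 for PRMT4.

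The 3 events of other members whose pattern over the 7 columns lay closest to that of the 200-base SRSF1 intron were the SRSF7 intron of 875 bases, the SRSF2 intron of 995 bases and the SRSF4 exon of 90 bases. The mean distance, after each event's own mean was taken off, was 0.0816, 0.0861 and 0.0882 PSI. All of these events were highest in PRMT3 knockdown, but their ranges over the 7 columns (0.15, 0.15 and 0.11) were much narrower than that of SRSF1 (0.52). They were picked for closeness to an intron that stood apart in PRMT3, so their PRMT3 maximum follows largely from that choice and shows no shared pattern by itself.

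Of the 30 MISO events, 18 had a row with the same splice junctions in the authors' deposited table. The root mean square distance between both for these events was 0.0314 to 0.0601 PSI, against 0.0499 to 0.0578 over all matched events. Of the 10 MISO differences of at least 0.1 that could be looked up there, 9 had the same sign and none reached 0.1 in the authors' deposited table. The exception, the SRSF5 intron of 285 bases in PRMT7 knockdown, was at 0.000 there. The others were all in the 259-base SRSF5 intron, the SRSF5 5' splice sites 125 bases apart and the 51-base SRSF10 exon. For that exon the values in the authors' deposited table were only 0.007 and 0.005. These differences share the scramble column, and the sign of the authors' deposited table was itself set from MISO, so they are not independent agreements. The SRSF1 introns, the minor SRSF2 5' splice site choice and the 372-base SRSF5 intron, which carry the largest MISO differences, have no matching row, so they rest on MISO alone.

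**Figure D4:**
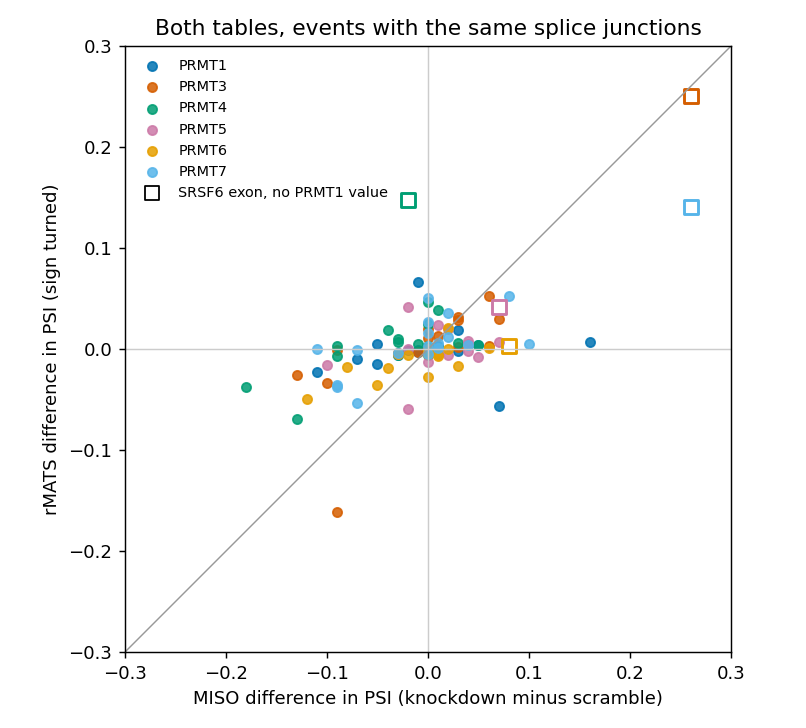
Difference in PSI by MISO (horizontal axis, knockdown minus scramble) against the rMATS difference of the authors' deposited table with its sign turned (vertical axis) for the member events with the same splice junctions, 1 point per event and knockdown, with the line of equality. Open squares are the SRSF6 poison exon, which has no MISO value in PRMT1; it is near the line in PRMT3 (0.26 by MISO and 0.250 in the authors' deposited table) and far from it in PRMT4 (-0.02 and 0.148).

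For genes that act with SR proteins the counts were small and their shares lay on both sides of those over all events given above. Among kinases that phosphorylate SR proteins (the CLK and SRPK families and PRPF4B), 6 of 7 genes had 12 complete MISO events. Of these, 1 was lower in PRMT1, 1 lower in PRMT5 and 1 higher in PRMT6 knockdown (8.33% each, beside 4.41%, 3.71% and 2.5% of all MISO events). None differed in the other 3. Among SR-like and SR-related proteins, 9 of 15 genes had 33 events: 4 were higher in PRMT7 (12.1%, beside 2.54% of all MISO events), 2 higher in PRMT3 (6.06%, beside 4.37%), 1 higher and 2 lower in both PRMT5 and PRMT6 (9.09% in all, beside 8.27% and 6.84%), and none differed in PRMT1 and PRMT4. The PRMT7 events lay in 2 genes and the PRMT3 events in 1 gene. SRRM1, an SR-related matrix protein, used the longer of 5' splice sites 6 bases apart at 0.70 for scramble and 0.76 to 0.84 in the knockdowns, but the authors' deposited table put it between -0.050 and 0.027. Of the nonsense-mediated decay factors, 5 of 10 genes had 9 events, with 2 higher in PRMT3 (22.2%, beside 4.37%), 1 higher in PRMT4 (11.1%, beside 3.23%), 1 higher and 1 lower in both PRMT5 and PRMT6 (22.2% in all, beside 8.27% and 6.84%), 1 lower in PRMT7 (11.1%, beside 3.8%) and none in PRMT1. A 161-base exon of UPF3A was at 0.81 for scramble, 0.91 to 0.94 for PRMT3, PRMT4, PRMT5 and PRMT6, and 0.72 for PRMT7, with 0.055 for PRMT3 and -0.008 for PRMT7 in the authors' deposited table.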

How the data were processed

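Stranded poly(A) libraries (TruSeq kit, paired ends, HiSeq X10) were made per the labels' protocols. The submitters' processing notes name cutadapt 1.18, HISAT and build GRCh37. Not given in the sources used here were versions and settings of MISO and rMATS, read depths, and the way 2 hairpins became 1 column. The authors deposited PSI by MISO as a fraction from 0 to 1, and differences in PSI by rMATS without tests or read numbers. Which side was subtracted in the rMATS table is not recorded. Over 6608 to 6771 events per target matched by splice junctions, its correlation across events with knockdown minus scramble by MISO was -0.600 to -0.366, and it was below 0 for each event type, so its sign was turned. This sign therefore rests on MISO.

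Differences were taken on complete events and called at 0.1 PSI. Forms were set against 101 GENCODE release 29 transcripts of the 9 genes (21 annotated as decay targets) by exon and intron lengths within the gene, without converting coordinates. Transcripts of both forms were found for 26 MISO and 34 rMATS events. The scripts were tested on simulated data. Members, gene lists and the rule for named events (every complete MISO event, its rMATS match, and per gene the rMATS event with the largest mean difference; related genes with 3 differing knockdowns) were chosen with earlier results of these data known. An event of a related gene that met this rule is not reported here. Other rMATS events named here were chosen after their values were seen. Computation used matplotlib 3.10.9, pandas 2.3.3, numpy 2.4.6 and Python 3.11.15. As alternatives, other choices were tried of the threshold, the reference and missing values. A filter on mean PSI, a logit scale and the median over events with the same alternative part were also tried. A MISO line with no content (1 line) was skipped.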

Additional observations from a re-analysis of the deposited data

Results flagged for a closer look

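Events without a value in every column stood outside the comparisons. Among them, the SRSF6 poison exon by MISO was 0.26 above scramble in both PRMT3 and PRMT7 knockdown. A 62-base SRSF5 exon (chromosome 14, 70235330 to 70235391), with 4 of 6 values in the authors' deposited table, stood at -0.131 in PRMT1, -0.369 in PRMT3, -0.144 in PRMT4 and -0.459 in PRMT6. Its version with a 3' splice site 9 bases upstream, 71 bases long, was within 0.002 of 0 in the same 4 columns there. The choice between these 3' splice sites was also within 0.002 of 0 in all 6 knockdowns. The low values thus belong to the 62-base version only. Missing values differ between columns, and their part in these values was not tested.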

How the results depend on the processing

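No paired analysis was possible because each table holds 1 column per target. For the same reason no hairpin could be left out. The counts below are of member events only. No shares over all events were made under these settings, so these counts stand without a background. At 0.05 PSI the number of differing MISO events was 10 for PRMT1, 14 for PRMT3, 8 for PRMT4, 8 for PRMT5, 9 for PRMT6 and 10 for PRMT7, and at 0.2 it was 1, 3, 1, 1, 0 and 0. Against the median of all 7 columns it was 2 for PRMT1, 4 for PRMT3, 4 for PRMT5, and 1 each in PRMT4, PRMT6 and PRMT7. Against the mean of the other 5 knockdowns it was 4 for PRMT3, 1 for PRMT7 and 3 for each of the others. On the logit scale (at least 0.5) it was 7 for PRMT1, 12 for PRMT3, 10 for PRMT4, 8 for PRMT5, 8 for PRMT6 and 9 for PRMT7. With the median over events that share an alternative part, it was 3 each for PRMT1, PRMT4, PRMT5 and PRMT7, 7 for PRMT3 and 1 for PRMT6. This merged the SRSF2 5' splice sites 36 bases apart as joined to the usual and to the minor 3' splice site. With the authors' deposited table, a threshold of 0.05 PSI gave 11 for PRMT1, 10 for PRMT3, 8 for PRMT4, 10 for PRMT5, 6 for PRMT6 and 8 for PRMT7, and 0.2 gave 1 for PRMT3 and 0 in the other 5. With the median over rows that share an alternative part there, it was 0 for PRMT1, 3 for PRMT3, 1 for PRMT4, 2 for PRMT5, 0 for PRMT6 and 1 for PRMT7. Such rows can have different splice junctions and unlike values, such as 0.159 and 0.021 for the 136-base SRSF4 exon in PRMT1. The lower counts thus do not show that events had been counted more than once. The median intron difference in PRMT3 was 0.046 against the other knockdowns, and without SRSF5 it was 0.09 for PRMT3, -0.005 for PRMT4 and 0.055 for PRMT7.

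Against the mean of the other 5 knockdowns, 5 MISO differences changed sign: the minor SRSF2 5' splice site choice in PRMT1 (-0.026) and PRMT7 (-0.026), and the 259-base SRSF5 intron in PRMT1 (0.014), PRMT5 (0.026) and PRMT6 (0.002). By that reference 6 of 24 differences stayed at 0.1 or more: both SRSF1 introns (0.412 and -0.356) and the SRSF2 choice (0.142) in PRMT3, and the 372-base SRSF5 intron in PRMT1 (-0.172), PRMT4 (-0.112) and PRMT5 (-0.184). With a single scramble column, a deviation of that column and a shared response of the knockdowns cannot be told apart.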
